A study of Mus musculus with 6 samples.

Results

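The genes described here are 10 genes of insulin signalling in fat: the insulin receptor gene Insr, the receptor substrate genes Irs1, Irs2 and Irs3, the PI3-kinase regulatory subunit gene Pik3r1, the kinase gene Akt2, and the downstream genes Pde3b, Foxo1, Tbc1d4 and Slc2a4. They were taken by gene symbol from a table of 40428 genes and transcripts, in which each of the 10 stood on a single line, and all 10 were among the 19272 features with enough reads to be tested. The study sequenced RNA of whole subcutaneous white adipose tissue from C57BL/6J mice fed regular chow at room temperature. The 3 ANKO mice carried floxed Nampt alleles together with adiponectin-Cre, which is active in fat cells and so removes Nampt from adipocytes but not from the other cells of the depot. The 3 control mice were flox/flox. Age, sex and whether the controls carried Cre are not given in the labels. Library totals were 19748962 to 23860596 counts. Nampt, the deleted gene, encodes the rate-limiting enzyme of NAD salvage and stood at 48.6, 50.2 and 47.0 CPM (the read count relative to the size of its library, with library sizes scaled by the TMM method) in ANKO mice 1, 2 and 3, against 83.6, 93.0 and 87.0 CPM in control mice 1, 2 and 3. The groups did not overlap (log2 fold change -0.85, adjusted p = 0.00416).

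Insulin binds a receptor tyrosine kinase that phosphorylates insulin receptor substrates, and these recruit PI3-kinase and through it activate the kinase AKT. In adipocytes AKT2 phosphorylates the RAB GTPase-activating protein TBC1D4, also called AS160, which lets vesicles with the glucose transporter GLUT4, the product of Slc2a4, reach the plasma membrane. AKT also activates the phosphodiesterase PDE3B, which lowers cAMP and thereby restrains lipolysis, and keeps the transcription factor FOXO1 out of the nucleus.

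Of these 10 genes, 9 had lower estimates in ANKO than in control tissue, beside 49.9% of all tested features, and 2 passed the test, Pde3b and Foxo1, which both fell. Slc2a4 was the 1 gene with a positive estimate. No member was called higher. Among all tested features 1.10% were called lower and 0.488% higher, at a Benjamini-Hochberg adjusted p under 0.05 in edgeR's quasi-likelihood test. The median log2 fold change of the 10 genes was -0.48, beside 0.00068 over all tested features. The 3 ANKO values lay below the 3 control values for 7 of the 10 genes, beside 10.2% of all features. They lay above them for none, beside 9.19%. Of the 10 genes, 8 had an unadjusted p under 0.05, beside 12.9% of all features. The call of the 2 genes depended on single libraries. The number called lower was 0 without ANKO 1, without ANKO 3 or without control 2, and 1 without ANKO 2. DESeq2 called 4 of the 10 lower, with Insr and Irs1 added, and none higher, where it called 2.69% of all its features lower and 2.08% higher.

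**Figure D1:**
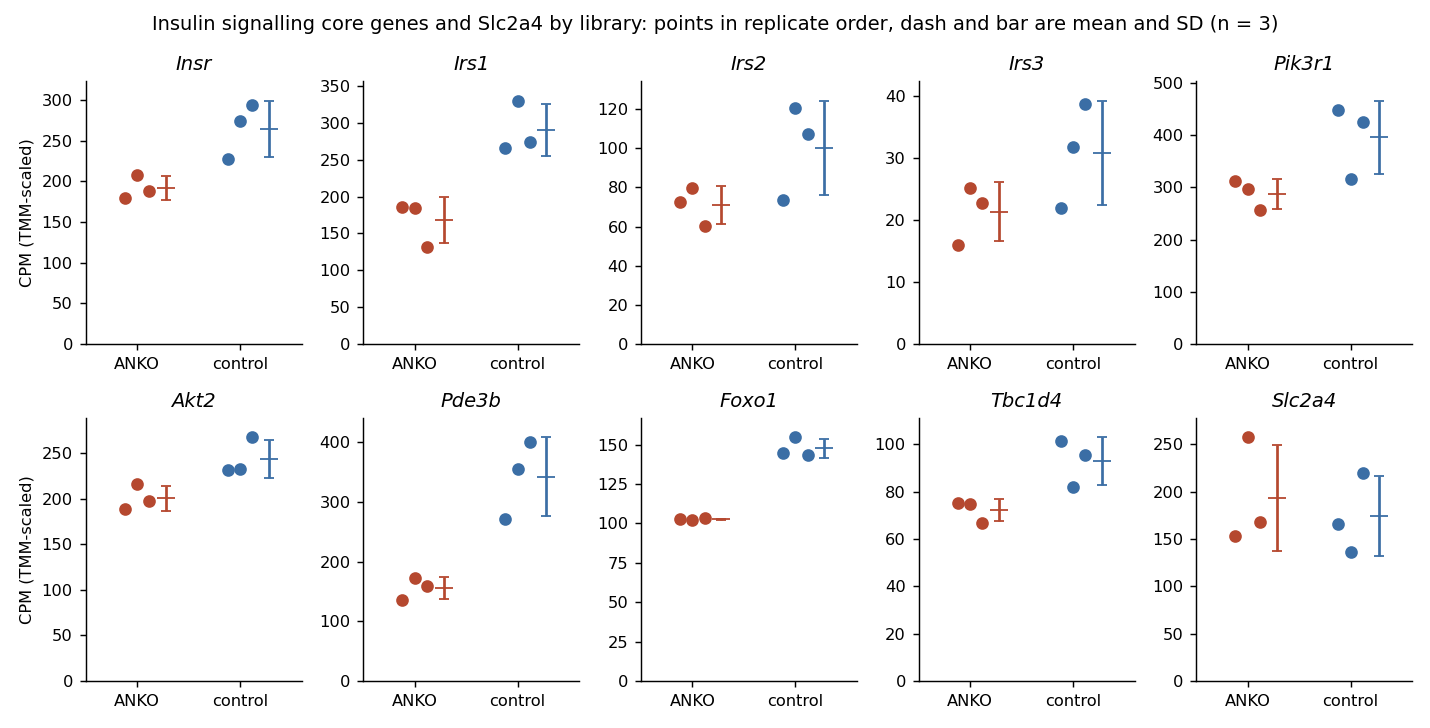
TMM-scaled CPM of the 10 genes in each library (vertical axes, from 0), ANKO at the left of each panel and control at the right. Points are single mice in replicate order and the dash with bars is the mean ± SD (n = 3). The groups of Pde3b and Foxo1, the genes that passed the test, are apart, and the Slc2a4 values of the groups overlap.

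The insulin receptor gene Insr (chromosome 8, 3122061 to 3279617, minus strand, GRCm38) stood at 180, 208 and 187 CPM in ANKO mice 1 to 3, against 227, 273 and 294 CPM in control mice 1 to 3. The highest ANKO value was below the lowest control value. An estimate of -0.46 on the log2 scale (SE 0.117, 95% interval -0.73 to -0.19) did not pass the test over all features (adjusted p = 0.120), while DESeq2 gave adjusted p = 0.0216. Igf1r, the gene of the related receptor for insulin-like growth factor I, averaged 65.2 ± 3.40 CPM in ANKO and 57.0 ± 0.790 CPM in control (SD, n = 3 each), with all ANKO libraries above the controls, an estimate that did not pass the test (log2 fold change 0.20, adjusted p = 0.320).

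The insulin receptor substrates are the docking proteins on which PI3-kinase assembles. IRS1 and IRS2 are the widely used ones, and IRS3 is a shorter form of rodent adipocytes that has no working human counterpart. Irs1 (chromosome 1, 82233101 to 82291416, minus strand) had 186, 185 and 132 CPM in ANKO mice, against 266, 330 and 274 CPM in control mice. The groups did not overlap, and ANKO 3 was the lowest library. The log2 fold change of -0.79 (SE 0.154, 95% interval -1.14 to -0.43), or 0.579 of the control level, lay just outside the threshold (adjusted p = 0.0526). It passed with upper-quartile scaling (adjusted p = 0.0393), without the low-count filter (adjusted p = 0.0151) and in DESeq2 (adjusted p = 0.000173), and in no fit with 1 of the 6 libraries left out.

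Irs2 (chromosome 8, 10984681 to 11008458, minus strand) had 72.7, 79.5 and 60.3 CPM in ANKO mice, against 73.7, 120 and 107 CPM in control mice. Control 1 lay within the range of the ANKO libraries, so the groups overlapped. Its log2 fold change was -0.50 (SE 0.190, adjusted p = 0.322). Irs3 (chromosome 5, 137643031 to 137645714, minus strand) had 16.0, 25.1 and 22.7 CPM in ANKO mice, against 21.9, 31.8 and 38.6 CPM in control mice, and again control 1 lay inside the ANKO range. The log2 estimate was -0.53 with an interval that included 0 (-1.10 to 0.04, adjusted p = 0.426). Irs3 had the fewest reads of the 10 genes, and counting error alone amounts to 5.13% of its smallest count. Irs4 had no reads in any library.

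The read-count ratio of Irs2 to Irs1 within a library, in which library size cancels, was 0.390, 0.429 and 0.456 in ANKO mice and 0.277, 0.364 and 0.390 in control mice. The highest control library, control 3, lay just above the lowest ANKO library, ANKO 1. On the log2 scale ANKO exceeded control by 0.317, with p = 0.20 in an exact two-sided permutation test over the 6 libraries and 0.40 after adjustment over the 2 ratios tested. With 3 mice against 3 this test cannot give less than 0.10. Without control 1 the difference was 0.170. Per kilobase of annotated exon, Irs1 made up 42.9% to 52.7% of the summed level of the 3 substrate genes in ANKO and 47.3% to 58.0% in control, Irs2 28.3% to 29.7% and 23.3% to 27.7%, and Irs3 17.6% to 28.8% and 18.7% to 26.1%. The Irs2 shares did not overlap between groups and the others did. These shares were not tested, and they depend on the exon lengths used.

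The promoters of Irs1 and Irs2 are shown because both genes are known targets of regulation by feeding, and in Irs2 an insulin response element bound by FOXO1 next to an E-box bound by TFE3 has been described. The 250 bases before the RefSeq start (GRCm38.p6, minus strand of chr1:82291440-82291689 for Irs1 and of chr8:11008930-11009179 for Irs2) are printed 5′ to 3′, with the E-box CACGTG and the element core CAAAACA, read on either strand (TGTTTTG on the other), in capitals.
Irs1: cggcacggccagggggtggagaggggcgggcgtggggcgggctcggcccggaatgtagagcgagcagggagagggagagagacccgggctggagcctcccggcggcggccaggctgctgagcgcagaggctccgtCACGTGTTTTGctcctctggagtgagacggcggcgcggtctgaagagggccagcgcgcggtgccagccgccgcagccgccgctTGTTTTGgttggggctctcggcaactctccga
Irs2: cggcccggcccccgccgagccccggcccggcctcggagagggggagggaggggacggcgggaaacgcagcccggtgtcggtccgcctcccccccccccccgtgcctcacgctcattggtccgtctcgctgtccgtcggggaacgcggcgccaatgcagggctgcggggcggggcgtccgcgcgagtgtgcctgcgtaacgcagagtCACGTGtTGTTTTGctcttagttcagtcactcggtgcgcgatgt
In Irs1 the E-box ran into the element core, overlapping it by 2 bases, and a further copy of the core lay nearer the start. In Irs2 the E-box and the core were 1 base apart, and the core ended 31 bases before the start. Of 32851 promoter windows of the same length, 6.02% held the E-box, 5.56% the element core, 0.295% both and 0.0213% both overlapping or at most 1 base apart. That closeness was noticed in the printed sequences and counted afterwards. The FOXO core GTAAACA, present in 3.17% of the windows, was in none of the 11 windows of members. RefSeq windows were found for 7 members, and none for Insr, Pde3b and Slc2a4. These letters describe the windows and say nothing about binding in these mice.

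Pik3r1 (chromosome 13, 101680563 to 101768217, minus strand) encodes p85alpha and its shorter forms, the regulatory subunits that bring PI3-kinase to the substrates. It had 312, 296 and 256 CPM in ANKO mice, against 447, 316 and 425 CPM in control mice. The groups did not overlap, although control 2 lay only slightly above ANKO 1. Its estimate was -0.46 on the log2 scale (SE 0.147, adjusted p = 0.215). The other regulatory subunit genes had estimates near 0. Pik3r2 averaged 67.4 ± 1.497 CPM in ANKO and 69.0 ± 1.59 CPM in control (log2 fold change -0.04, adjusted p = 0.901). Pik3r3 averaged 14.96 ± 2.31 CPM in ANKO and 15.7 ± 1.86 CPM in control (log2 fold change -0.07, adjusted p = 0.913). Per kilobase, Pik3r1 held 57.5% to 62.0% of the 3 regulatory subunit genes in ANKO and 61.0% to 69.4% in control, ranges that overlapped.

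**Figure D2:**
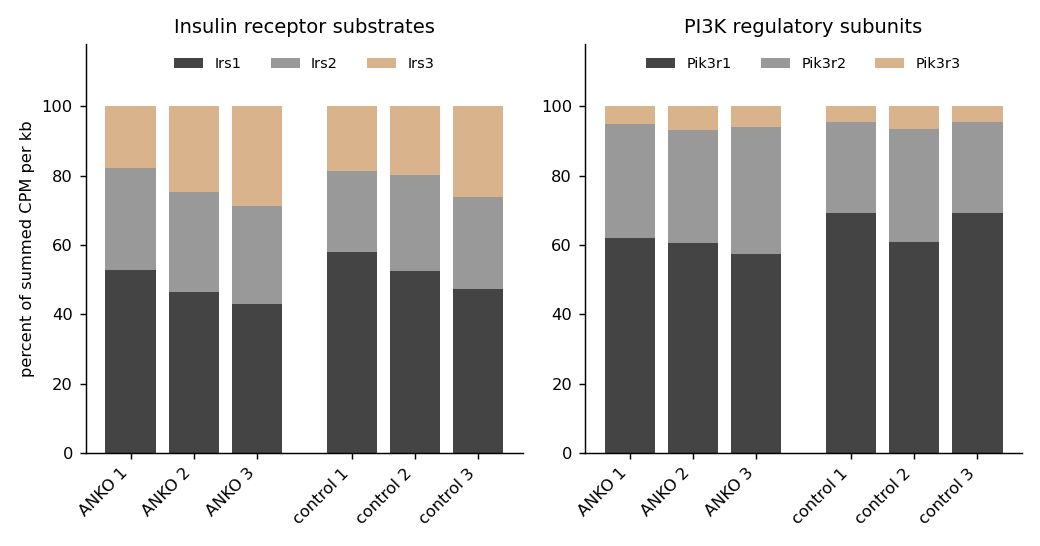
Share of the summed CPM per kilobase of exon (vertical axis, percent) held by each gene of the insulin receptor substrate and PI3-kinase regulatory subunit groups in each library, with the 3 ANKO libraries left of the 3 control libraries. Irs2 held 28.3% to 29.7% of the substrate genes in ANKO and 23.3% to 27.7% in control.

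Akt2 (chromosome 7, 27591552 to 27640826, plus strand), the AKT form on which insulin-stimulated glucose uptake in fat depends, had 189, 216 and 197 CPM in ANKO mice, against 232, 232 and 268 CPM in control mice. The groups were separate but close. Its log2 fold change of -0.28 was the smallest in size among the 9 negative estimates (SE 0.0977, 95% interval -0.51 to -0.06, adjusted p = 0.261). Akt1 averaged 157 ± 5.57 CPM in ANKO and 148 ± 12.3 CPM in control (SD, n = 3 each) and did not pass the test (log2 fold change 0.09, adjusted p = 0.755).

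Pde3b (chromosome 7, 114415281 to 114539251, plus strand) had the largest change of the 10 genes. The phosphodiesterase it encodes is the main route by which insulin lowers cAMP and lipolysis in adipocytes. It had 135, 172 and 159 CPM in ANKO mice, against 271, 356 and 401 CPM in control mice, so that the highest ANKO library was well below the lowest control library. Pde3b fell to 0.454 times its control value (a log2 difference of -1.14, SE 0.159, 95% interval -1.51 to -0.77, adjusted p = 0.0154). The adjusted p was 0.0517 without ANKO 1, 0.0825 without ANKO 3 and 0.0685 without control 2, and the estimate stayed between -1.28 and -0.999 when any 1 of the 6 libraries was left out.

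Foxo1 (chromosome 3, 52268336 to 52353221, plus strand), the forkhead factor that insulin restrains through AKT, had 102, 102 and 103 CPM in ANKO mice, against 145, 155 and 143 CPM in control mice. The ANKO libraries lay within 1 CPM of each other and far below the controls. That spread is smaller than counting error alone, 2.12% of the gene's smallest count, so it cannot be read as close agreement between the mice. Foxo1 fell to 0.695 times its control value (a log2 difference of -0.52, SE 0.0732, 95% interval -0.69 to -0.36, adjusted p = 0.0152). The adjusted p was 0.0656 without ANKO 1, 0.0553 without ANKO 2, 0.0845 without ANKO 3 and 0.0611 without control 2. Foxo3 averaged 154 ± 10.4 CPM in ANKO and 144 ± 24.7 CPM in control, and Foxo4 44.5 ± 7.10 CPM and 48.9 ± 4.48 CPM (adjusted p = 0.833 and 0.751). Of 22 tested genes listed as known FOXO targets, 1 rose and 2 fell, beside 0.488% and 1.10% of all tested features. An unadjusted p under 0.05 was found for 6, beside 12.9%. DESeq2 called 2 higher and 2 lower, beside 2.08% and 2.69% of its features. The median estimate was -0.00012 on the log2 scale. The growth arrest gene Gadd45a rose (14.3 ± 2.16 CPM in ANKO, 6.52 ± 0.926 CPM in control, adjusted p = 0.0225). The mitophagy receptor gene Bnip3 fell (39.5 ± 1.78 CPM in ANKO, 115 ± 25.3 CPM in control, adjusted p = 0.00678). The phosphoenolpyruvate carboxykinase gene Pck1 fell as well (306 ± 58.4 CPM in ANKO, 2035 ± 812 CPM in control, adjusted p = 0.0189). Bnip3 stayed called whichever of the 6 libraries was left out. Gadd45a was called in 2 of these reduced sets, not without ANKO 2, ANKO 3, control 2 or control 3 (adjusted p = 0.0820, 0.0935, 0.0915 and 0.0681). Its call was also lost with the replicate block (adjusted p = 0.0680) and with the muscle covariate (adjusted p = 0.0625). Pck1 was called in 1, without control 1, with adjusted p = 0.0574 to 0.121 in the others, and not without the low-count filter (adjusted p = 0.0692).

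Tbc1d4 (chromosome 14, 101442360 to 101609191, minus strand), the AKT substrate that holds GLUT4 vesicles back, had 75.3, 74.6 and 67.0 CPM in ANKO mice, against 102, 81.9 and 95.3 CPM in control mice. The groups did not overlap, with control 2 the nearest to ANKO. Its estimate was -0.36 on the log2 scale (SE 0.101, adjusted p = 0.157). Its paralogue Tbc1d1 averaged 86.7 ± 8.50 CPM in ANKO and 89.1 ± 2.25 CPM in control (log2 fold change -0.04, adjusted p = 0.915).

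Slc2a4 (chromosome 11, 69942539 to 69948188, minus strand) had 154, 257 and 168 CPM in ANKO mice, against 166, 136 and 219 CPM in control mice. ANKO 2 was the highest library and control 2 the lowest, and the others were mixed. Its estimate was 0.15 on the log2 scale (SE 0.248, adjusted p = 0.875), and its 95% interval ran from 0.735 to 1.67 of the control level, so a moderate change in either direction lies within it. Without ANKO 2 the estimate was -0.11. The basal glucose transporter gene Slc2a1 had 39.96, 30.6 and 28.3 CPM in ANKO mice, against 33.9, 48.5 and 27.2 CPM in control mice, and did not pass the test either (log2 fold change -0.15, adjusted p = 0.864). The read-count ratio of Slc2a4 to Slc2a1 was 3.84, 8.40 and 5.93 in ANKO mice and 4.90, 2.81 and 8.06 in control mice, which overlap almost fully. The log2 difference of 0.262 had p = 0.60 in the exact permutation test (0.60 adjusted over the 2 ratios), and it was -0.125 without control 2 and -0.0103 without ANKO 2.

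Slc2a4 is also a gene of skeletal muscle, and the libraries held muscle marker RNA in unequal amounts. The 19 muscle markers summed to 2.04%, 0.346% and 0.0131% of the counts in ANKO mice 1 to 3, against 0.685%, 0.175% and 1.03% in control mice 1 to 3, and none of them was at 0 in all libraries. None of the 18 tested was called by edgeR or DESeq2, and none had an unadjusted p under 0.05. In control mice Slc2a4 followed the order of the muscle markers. In ANKO mice it did not: ANKO 1, with the most muscle RNA, had the lowest Slc2a4 value. With the muscle signal as a covariate 1 of the 10 genes was called lower, Pde3b (adjusted p = 0.0480), and Foxo1 was not (adjusted p = 0.0534), with a log2 estimate of -0.53 that was about as large as without the covariate.

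To set different genes side by side, levels were divided by the length of all annotated exons of a gene, merged over its transcripts. The forms expressed here may be shorter, so the order between genes is approximate. On this scale Slc2a4 had the highest mean of the 10 genes in both groups, at 55.5 ± 16.2 CPM per kb in ANKO and 50.0 ± 12.1 CPM per kb in control. In ANKO it was followed by Pik3r1 (28.6), Akt2 (28.1), Irs1 (18.4), Pde3b (17.04), Insr (14.0), Foxo1 (11.8), Irs2 (11.2), Tbc1d4 (9.42) and Irs3 (9.10). In control it was followed by Pik3r1 (39.3), Pde3b (37.6), Akt2 (34.2), Irs1 (31.7), Insr (19.3), Foxo1 (17.03), Irs2 (15.9), Irs3 (13.2) and Tbc1d4 (12.1). In ANKO the libraries of neighbours in this order overlapped except between Slc2a4 and Pik3r1, between Akt2 and Irs1 and between Insr and Foxo1. In control they overlapped except between Irs1 and Insr. Pde3b held the fifth place in ANKO and the third in control.

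Adipocyte marker RNA moved in the same direction as 9 of these genes. All 15 adipocyte markers were tested, all 15 had a negative log2 fold change, and none was at 0. Of the 15, 5 were called lower (Adipoq, Plin1, Car3, Retn and Cfd), beside 1.10% of all tested features. An unadjusted p under 0.05 was found for 11, beside 12.9%, and DESeq2 called 7 lower, beside 2.69% of its features. Together the 15 markers made up 1.01%, 1.34% and 1.30% of the counts in ANKO mice 1 to 3, against 2.21%, 2.90% and 3.17% in control mice 1 to 3. The median log2 fold change of the markers was -0.75, within a range of -2.60 (Cfd) to -0.45 (Pnpla2). In whole tissue, fewer adipocytes and less of these RNAs per adipocyte cannot be told apart. Macrophage markers moved the other way: all 11 had positive estimates, and 3 were called higher, beside 0.488% of all tested features. Of the 11, 9 had an unadjusted p under 0.05, and DESeq2 called 8 higher, beside 2.08% of its features. Together the macrophage markers made up 0.102% to 0.138% of the counts in ANKO and 0.0683% to 0.0834% in control. Endothelial markers made up 0.0729% to 0.0760% of the counts in ANKO and 0.0818% to 0.0907% in control, without overlap, and all 8 had negative estimates. All 8 lymphocyte markers did too, at 0.0689% to 0.107% in ANKO and 0.0804% to 0.110% in control. The largest of those 8 was Ptprc, which is not limited to lymphocytes, at a mean of 494 CPM in ANKO and 559 CPM in control. Stromal fibroblast markers made up 0.562% to 1.025% in ANKO and 0.575% to 0.739% in control, and mammary epithelium markers 0.0450% to 0.0687% in ANKO and 0.0130% to 0.110% in control. Of the endothelial, stromal fibroblast, mammary epithelium and lymphocyte markers, edgeR called none of 8, 8, 6 and 8 tested, with 2, 4, 0 and 1 at an unadjusted p under 0.05, and DESeq2 called 2 fibroblast markers higher and none of the others. The part of these shifts in the results was not tested.

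The genes were also set against the adipocyte markers of their own library, as log2 CPM minus the mean log2 CPM of the 15 markers. That mean was itself 8.83 in ANKO and 9.86 in control, a difference of -1.03, so a gene with equal CPM in both groups stands higher in ANKO by that amount on this scale. Pde3b stood at -1.41, -1.67 and -1.59 in ANKO mice, against -1.49, -1.38 and -1.502 in control mice. These values overlapped. On the same scale Slc2a4 stood at -1.23, -1.08 and -1.501 in ANKO mice, against -2.19, -2.77 and -2.37 in control mice, without overlap, a difference close to the shift of the markers. The mean differences, ANKO minus control, were -0.10 for Pde3b and 1.17 for Slc2a4, and those of the other 8 genes lay from 0.23 for Irs1 to 0.75 for Akt2. All ANKO values lay above all control values for 5 of the 10 genes (Slc2a4, Akt2, Tbc1d4, Insr and Irs3), beside 76.4% of all tested features, and below them for none, beside 0.462%. This scale was chosen after the values were seen, it moves with the choice of markers, and no test was made on it. Among mice of the same group, Insr, Irs3, Akt2 and Pde3b followed the order of the summed adipocyte markers in both groups: ANKO 1 was lowest, then ANKO 3 and ANKO 2, and control 1 was lowest, then control 2 and control 3. Of the other 6 genes, Slc2a4 kept that order in ANKO only, and the rest kept it in neither group. The share of all tested features in that order was not counted. For Akt2 the order of control 1 and control 2 rests on 231.6 against 232.2 CPM. That gap is smaller than counting error alone, 1.53% of the gene's smallest count. The 4 genes are also correlated over the libraries (Insr with Pde3b r = 0.981, with Akt2 r = 0.946), so their matches are not separate observations.

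**Figure D3:**
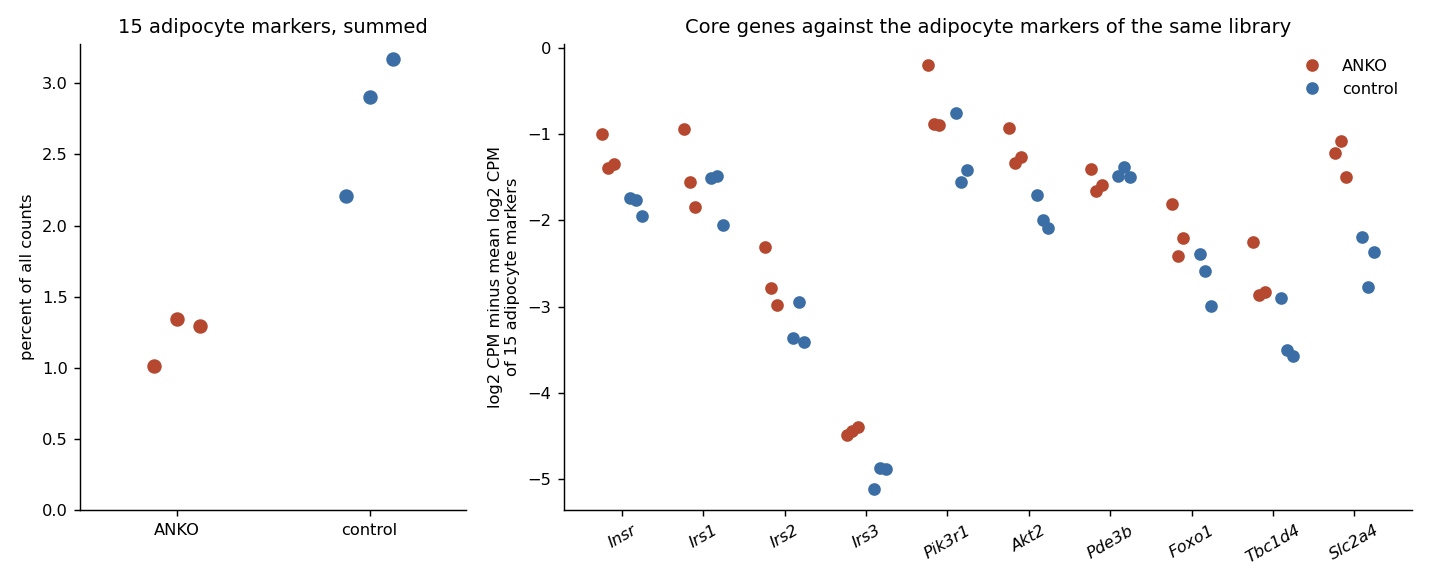
Left, the summed share of 15 adipocyte marker genes in each library (percent of all counts), 1.01% to 1.34% in ANKO and 2.21% to 3.17% in control. Right, log2 CPM of each gene minus the mean log2 CPM of those markers in the same library, with ANKO points left of control points. The marker mean differed by -1.03 between ANKO and control, so a gene with equal CPM in both groups is placed higher in ANKO here, as Slc2a4 is, and the Pde3b values overlap.

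Outside the 10 core genes, the counts of called genes in other lists of the pathway stand beside the 1.59% of all tested features called in either direction. Of 36 tested signal transducers 1 fell and none rose in the edgeR test, with a median log2 fold change of -0.02. An unadjusted p under 0.05 was found for 3, beside 12.9% of all tested features. DESeq2 called 1 lower and 1 higher, beside 2.69% and 2.08% of its features. With 1 library left out at a time, the number that fell was 1 without ANKO 2 and 0 without any other library, and it was also 0 without robust weighting, with limma-voom and with the muscle covariate.

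Of 24 genes that restrain insulin signalling, none passed the edgeR test, and 3 had an unadjusted p under 0.05, beside 12.9% of all tested features. DESeq2 called 1 higher and 1 lower, beside 2.08% and 2.69% of its features. The smallest p was that of Socs2, a suppressor of cytokine signalling, at 22.9 ± 3.11 CPM in ANKO and 37.0 ± 6.22 CPM in control (log2 fold change -0.69, SE 0.151, adjusted p = 0.0771). The largest estimate, named after its value was seen, was that of Trib3, a pseudokinase that binds AKT, at 28.8 ± 4.31 CPM in ANKO and 7.81 ± 4.40 CPM in control (log2 fold change 1.88, SE 0.383, adjusted p = 0.0880).

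Of 33 genes of GLUT4 vesicle traffic, none passed the edgeR test, and 5 had an unadjusted p under 0.05, beside 12.9% of all tested features. DESeq2 called 2 lower, beside 2.69% of its features, and the median log2 fold change was -0.04. The smallest p was that of Ralgapa2, a subunit of the RAL GTPase-activating complex, at 202 ± 23.3 CPM in ANKO and 320.0 ± 51.4 CPM in control (log2 fold change -0.66, adjusted p = 0.0689). Sort1, the sortilin of the GLUT4 storage vesicle, averaged 270 ± 52.1 CPM in ANKO and 403 ± 70.4 CPM in control (adjusted p = 0.189). Lnpep, the aminopeptidase that travels with GLUT4, averaged 190 ± 3.02 CPM and 217 ± 9.63 CPM (adjusted p = 0.347). Both were named after their values were seen.

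Of 10 tested other glucose transporter genes 1 fell, beside 1.10% of all tested features. That gene was Slc2a13, which encodes the proton-coupled myo-inositol transporter HMIT. It had 8.74, 7.97 and 9.39 CPM in ANKO mice, against 21.3, 16.5 and 17.8 CPM in control mice, with no overlap (log2 fold change -1.09, SE 0.144, adjusted p = 0.0134). It was not called without ANKO 1, ANKO 2 or ANKO 3 (adjusted p = 0.0512, 0.0532 and 0.0595). The fructose transporter gene Slc2a5, named after its value was seen, had 34.7, 83.4 and 47.4 CPM in ANKO mice, against 19.0, 1.71 and 9.53 CPM in control mice, and did not pass the test (log2 fold change 2.44, adjusted p = 0.364).

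Of 14 genes known to regulate Slc2a4 transcription, 1 fell, beside 1.10% of all tested features, and none rose. Estimates were positive for 7 and negative for 7, and the median log2 fold change was -0.06. An unadjusted p under 0.05 was found for 5, beside 12.9% of all tested features. Klf15, a Krüppel-like factor that raises Slc2a4 expression in adipocytes, had 32.9, 27.5 and 29.5 CPM in ANKO mice, against 66.1, 87.3 and 106 CPM in control mice. The groups were far apart (log2 fold change -1.53, SE 0.169, adjusted p = 0.00837), and with 1 library left out at a time the call was lost only without ANKO 3 (adjusted p = 0.0620). Mef2a, whose product binds the Slc2a4 promoter in muscle and fat, averaged 110 ± 6.73 CPM in ANKO and 109 ± 5.31 CPM in control (adjusted p = 0.965). Cebpa and Pparg, the adipogenic regulators, averaged 493 ± 120 CPM and 82.9 ± 21.6 CPM in ANKO, against 757 ± 152 CPM and 117.9 ± 25.2 CPM in control (adjusted p = 0.251 and 0.430). Estimates of Mef2d, Mlxipl and Srebf1 were positive. Mef2d averaged 217 ± 7.53 CPM in ANKO and 181 ± 11.1 CPM in control, without overlap (adjusted p = 0.218). Mlxipl averaged 280 ± 100 CPM and 197 ± 14.3 CPM, and Srebf1 577 ± 162 CPM and 476 ± 61.2 CPM (adjusted p = 0.459 and 0.650).

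**Figure D4:**
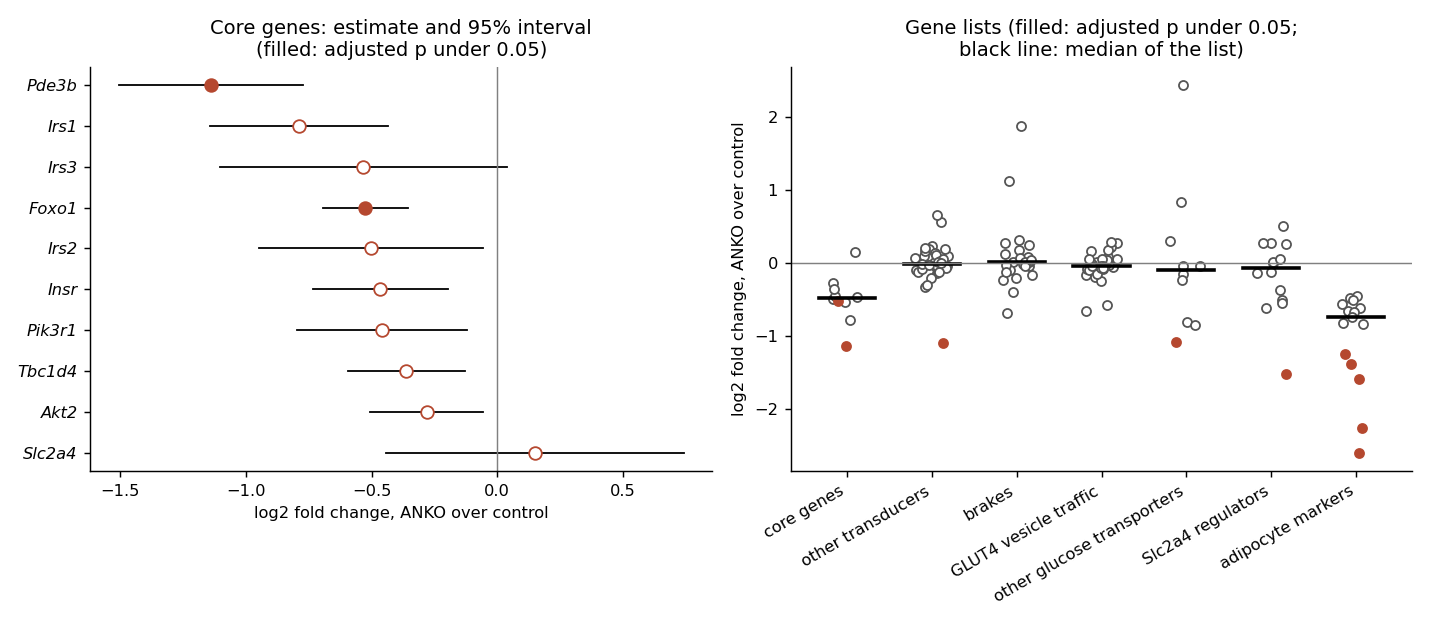
Left, log2 fold change of ANKO over control (horizontal axis) with its 95% interval for the 10 core genes, from Pde3b at -1.14 to Slc2a4 at 0.15. Right, log2 fold change (vertical axis) of every tested gene of the core, of 5 other lists and of the adipocyte markers, with black lines at the medians. Filled points passed the test, and the median was -0.48 for the core and -0.75 for the adipocyte markers.

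Among 14393 genes averaging 1 CPM or more, the log2 CPM of the 6 libraries most like that of Pde3b were those of Trim68 (Pearson r = 0.999), Art3 (r = 0.998) and Prkar2b (r = 0.997), which share its difference between groups. Art3 and Prkar2b were called lower (log2 fold change -1.46 and -1.23, adjusted p = 0.0134 and 0.0315) and Trim68 was not (-0.34, adjusted p = 0.200). Those most like Slc2a4 were Tpt1-ps3 (r = 0.995), Nav3 (r = 0.990) and Adgrg3 (r = 0.988), none of which was called. All values come from the same 6 libraries and are the extremes of a large search, so the coefficients are descriptions. Tpt1-ps3 is a pseudogene that can take reads of Tpt1.

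Whether the counting used strand is not given in the sources used here, and without strand a gene cannot be told apart from one that overlaps it on the other strand. In the annotation Irs1 shares 2822 exon bases with Gm9747, Foxo1 674 with Gm20402 and Irs2 162 with 9530052E02Rik, each on the opposite strand. Those partners had 0, 0 to 6 and 6 to 30 counts per library. The smallest count of Irs1, Foxo1 or Irs2 in any library was 1297.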

How the data were processed

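Per the labels' protocols, RNA was depleted of ribosomal RNA. The deposited table holds raw read counts by gene symbol, 1 column per mouse, matched to the samples by title. The submitters' processing notes name STAR 2.0.4b, featureCounts 1.45, Subread and build GRCm38, without their roles. Neither the annotation release nor the strand setting is given in the sources used here. Of 40757 lines, 329 exact repeats were removed. In R 4.3.3 with edgeR 4.0.16, features were kept by filterByExpr (minimum count 10, minimum total 15), scaled by TMM and tested by the robust quasi-likelihood F test, ANKO over control, with Benjamini-Hochberg adjustment over all 19272 tested features and a threshold of 0.05. An SE is the size of the log2 estimate over the root of its F statistic. The deposited counts were also tested with DESeq2 1.42.0 and limma-voom (limma 3.58.1). The steps were tested on simulated counts, with changes set in genes averaging 1 CPM or more. The test called 13.4% of 67 genes changed 1.5-fold, 61.2% of 67 changed 2-fold and 87.9% of 66 changed 4-fold. Unchanged genes made up 4.42% of its calls. A gene that did not pass can therefore still differ by such amounts. Gene positions and exon lengths come from GENCODE, promoters from RefSeq.

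The members, the lists, the muscle covariate and the rule for naming genes were chosen with earlier results of these data known. The rule took all 10 members, Nampt, Slc2a1, every called gene of each list (for a list with none, the gene with the smallest p), and the 3 genes most like each of Slc2a4 and Pde3b. Paralogues of members and the other list genes given with values were added after their values were seen. Libraries of a group differed beyond sampling noise (chi-square per degree of freedom 30.6 to 75.1). For the 2 ratios, 0.5 was added to each count. The median SE was 0.186 on the log2 scale. The p-values measure the spread between these mice, and the labels name no litters or batches. Some genes of the lists are counted but not reported here by name.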

Additional observations from a re-analysis of the deposited data

How the results depend on the processing

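The estimates of 9 of the 10 core genes stayed negative under all 15 alternatives. That of Slc2a4 ranged from -0.11 to 0.36 over the 6 fits that left out a library, that of Slc2a1 from -0.31 to 0.11, and that of the muscle gene Myh7 from -1.36 to 0.54. The log2 ratio difference of Slc2a4 to Slc2a1 ranged from -0.125 to 0.634. The number of core genes called lower was 0 to 2 over those fits, 1 with the muscle covariate, 4 with DESeq2 and 3 with upper-quartile scaling or no low-count filter. None was called higher under any alternative. Over all features, 55 to 221 were called lower and 20 to 107 higher in fits that left out a library. Lower calls numbered 112 with the muscle covariate and 480 with DESeq2, against 212. Higher calls numbered 50 with the muscle covariate, 371 with DESeq2, 62 with limma-voom, 167 without the low-count filter and 62 with the replicate block, against 94. Fits that left out a library had fewer samples; otherwise the cause was not tested. Deviations of same-numbered mice from their group means correlated at 0.111, -0.0546 and -0.0672, and those of differently numbered mice at -0.128 to 0.155. With 3 mice per group these values cannot tell whether the numbers pair the mice. With the replicate block 2 core genes were called. The log2 ratio differences under it were 0.317 for Irs2 to Irs1 and 0.262 for Slc2a4 to Slc2a1. With equal groups these equal the main differences by arithmetic, so they are no check on them. Scaling moved the median of all genes by less than 0.01. Counting error was at most 5.13% of the smallest count of each core gene.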
